A study of Mus musculus with 4 samples.

Results

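The transcripts of the cytotoxic granule were followed in type 1 innate lymphoid cells (ILC1s) of the mouse through 7 genes: the granzyme genes Gzma, Gzmb, Gzmc, Gzmk and Gzmm, the perforin gene Prf1 and the serglycin gene Srgn. The genes were taken by their symbols, and all 7 were found among the 40481 genes of the count table. RNA sequencing libraries of ILC1s marked by the integrin CD49a came from mice of the genotype Ncr1-iCre Inpp4b flox/flox (libraries 3 and 4, labelled KO, n = 2) and from mice of the genotype Inpp4b flox/flox (libraries 1 and 2, labelled WT and called controls here, n = 2). All mice thus carried floxed alleles of Inpp4b, a gene of a phosphoinositide phosphatase, and only the KO-labelled group carried the iCre transgene under the control of Ncr1, which is active in cells that make the receptor NKp46. No group had the transgene without the floxed alleles, so the effect of the transgene and that of a lost Inpp4b cannot be told apart. The labels name liver as the tissue of control library 1 only, and give no age.

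Cytotoxic lymphocytes store granzymes and perforin in secretory lysosomes. Serglycin, a small proteoglycan, holds the positively charged granzymes in the granule by its glycosaminoglycan chains. After release, perforin opens the membrane of the target cell, and granzymes enter and cleave their substrates. Granzyme B cuts after aspartate and can start apoptosis through caspases and BID, while granzymes A and K cut after basic residues. In the mouse, resting natural killer (NK) cells hold granzyme B and perforin transcripts but little of either protein until they are activated, and liver ILC1s are known to express several granzymes.

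The libraries held 42380840 to 54878210 counts. Counts of the 2 libraries of a group differed far beyond sampling noise (chi-square divided by its degrees of freedom was 89.6 for 14548 genes of the KO-labelled pair and 98.6 for 15023 genes of the control pair), so each library was kept as a sample. Separate mice are not named as their source, and p-values therefore measure the spread between these libraries, which may be technical. Inpp4b itself was at 142.5 and 85.96 CPM in KO-labelled libraries 3 and 4, against 78.7 and 106.5 CPM in the controls. The whole-gene count covers exons that a floxed allele may leave in place and so does not check the label. CPM here means counts relative to the library total after scaling by TMM, which aligns the bulk of the genes between libraries. Each of the 10 ILC1 markers (Itga1, the gene of CD49a, Tnfsf10, Cxcr6, Tbx21, Ncr1, Klrb1c, Il2rb, Cd200r1, Zfp683 and Il7r) was expressed in every library, and their summed level was 9628 and 10486 CPM in the KO-labelled libraries, against 9793 and 10617 CPM in the controls. Most of the sum came from Il2rb, Cxcr6 and Klrb1c. Itga1, Tbx21, Ncr1 and Cd200r1 (4 of 10) lay lower in both KO-labelled libraries than in both controls, where 20.8% of all genes tested did. Cxcr6 and Klrb1c (2 of 10) lay higher, where 19.5% of all genes did. Among the 10 markers Ncr1, the gene named in the iCre genotype, was at 1202 and 1077 CPM in the KO-labelled libraries, against 1672 and 1772 CPM in the controls. Its log2 fold change was -0.60 (edgeR adjusted p = 0.28), and DESeq2 called it lower. Its part in the values of the granule genes was not tested.

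Markers of other cells were unequal between the groups. Over all 14863 genes tested, edgeR called 0.155% at an adjusted p under 0.05, 0.141% higher and 0.0135% lower. The 18 myeloid markers summed to 1533 and 1580 CPM in the KO-labelled libraries, against 608.9 and 685.1 CPM in the controls. Itgax made up most of the control sums, at 479.6 and 492.3 CPM, and was at 510.2 and 538.3 CPM in the KO-labelled libraries. Lyz2 was at 626.0 and 582.5 CPM in the KO-labelled libraries, against 43.1 and 71.5 CPM in the controls. Of the 16 that were tested, 5 passed the edgeR threshold, all higher, while S100a9, Timd4 and S100a8 stayed below 1 CPM in every library. The 14 T cell markers summed to 3069 and 4133 CPM in the KO-labelled libraries, against 2578 and 2530 CPM in the controls. Most of the sum came from Cd3g, Trbc1 and Trbc2 in every library. Trac, at 85.1 and 200.9 CPM against 7.31 and 5.67 CPM in the controls, passed among 12 tested. Cd5 and Cd6 were at or near 0 in every library. The 13 markers of conventional NK cells summed to 519.1 and 789.6 CPM in the KO-labelled libraries, against 268.2 and 230.8 CPM in the controls, with Klra7 passing among 12 tested, while Eomes, which defines those cells, did not exceed 3.73 CPM in any library. Of the 9 mast cell and basophil markers, Fcer1a had 0 counts in every library and the others except Kit stayed at or below 6.49 CPM. Their sum was 72.0 and 40.6 CPM in the KO-labelled libraries, against 59.5 and 110.7 CPM in the controls. The 6 B cell markers summed to 649.0 and 804.0 CPM in the KO-labelled libraries, against 715.6 and 1046 CPM in the controls. The 8 hepatocyte markers summed to 155.3 and 156.2 CPM in the KO-labelled libraries, against 148.7 and 96.6 CPM in the controls. DESeq2 called 9 myeloid, 4 T cell, 2 conventional NK cell and 1 hepatocyte marker, all higher, and 0 of the other markers in this paragraph. Over all genes it called 1.83% higher and 1.34% lower.

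The 7 genes lie at 5 places of the mm10 genome (positions from GENCODE M21). On chromosome 13, minus strand, Gzma (ENSMUSG00000023132) spans 113093825 to 113100981 and Gzmk (ENSMUSG00000042385) spans 113171608 to 113225908, with 70.6 kb between them. On chromosome 14, minus strand, Gzmc (ENSMUSG00000079186) spans 56231441 to 56234656 and Gzmb (ENSMUSG00000015437) spans 56258838 to 56262260, with 24.2 kb between them. Chromosome 10 carries Prf1 (ENSMUSG00000037202, plus strand) at 61297833 to 61304680, Srgn (ENSMUSG00000020077, minus strand) at 62493833 to 62527451 and Gzmm (ENSMUSG00000054206, plus strand) at 79689020 to 79695261. The long gene model of Gzmk encloses Esm1 on the other strand, but the exons of the genes share 0 bases.

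The promoter windows of both neighbour pairs and of Prf1 are shown because the pairs place a highly expressed granzyme gene beside one with far fewer counts per length. RefSeq windows (GRCm38.p6, the assembly of mm10) run from 250 bases before to 50 after the annotated start of transcription, and all 7 genes had at least 1 among 9 windows. Capitals mark, on either strand, the T-box site TCACAC, the RUNX site TGTGGT, the ETS core GGAAGT, the core TGACG of the cyclic AMP response element (CRE) and the AP-1 site TGANTCA, factor families known to act at cytotoxic genes.
Gzma (chr13:113100932-113101231, minus strand): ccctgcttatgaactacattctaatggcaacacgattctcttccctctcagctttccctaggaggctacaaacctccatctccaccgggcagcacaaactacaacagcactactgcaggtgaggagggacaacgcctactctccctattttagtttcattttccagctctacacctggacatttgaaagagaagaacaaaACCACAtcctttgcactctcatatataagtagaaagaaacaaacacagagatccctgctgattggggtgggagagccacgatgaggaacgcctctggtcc
Gzmk (chr13:113180916-113181215, minus strand): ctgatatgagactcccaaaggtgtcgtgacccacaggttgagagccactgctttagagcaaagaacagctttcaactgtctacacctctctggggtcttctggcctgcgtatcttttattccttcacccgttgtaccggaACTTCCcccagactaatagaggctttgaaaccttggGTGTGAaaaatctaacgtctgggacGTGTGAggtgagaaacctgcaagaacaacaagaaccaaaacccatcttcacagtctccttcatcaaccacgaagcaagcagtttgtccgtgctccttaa
Gzmb (chr14:56262285-56262584, minus strand): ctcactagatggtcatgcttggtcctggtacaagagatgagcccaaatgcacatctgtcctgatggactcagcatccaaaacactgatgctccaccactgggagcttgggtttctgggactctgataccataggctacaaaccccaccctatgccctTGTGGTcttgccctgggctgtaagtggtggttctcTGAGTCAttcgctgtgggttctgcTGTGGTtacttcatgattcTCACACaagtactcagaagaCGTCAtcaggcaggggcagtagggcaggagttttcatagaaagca
Gzmc (chr14:56234608-56234907, minus strand): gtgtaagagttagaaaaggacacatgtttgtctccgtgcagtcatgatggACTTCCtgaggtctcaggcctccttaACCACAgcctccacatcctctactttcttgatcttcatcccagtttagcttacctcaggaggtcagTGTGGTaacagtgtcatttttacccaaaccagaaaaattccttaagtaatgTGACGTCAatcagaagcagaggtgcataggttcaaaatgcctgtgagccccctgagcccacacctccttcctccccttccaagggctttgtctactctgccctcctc
Prf1 (chr10:61297586-61297885, plus strand): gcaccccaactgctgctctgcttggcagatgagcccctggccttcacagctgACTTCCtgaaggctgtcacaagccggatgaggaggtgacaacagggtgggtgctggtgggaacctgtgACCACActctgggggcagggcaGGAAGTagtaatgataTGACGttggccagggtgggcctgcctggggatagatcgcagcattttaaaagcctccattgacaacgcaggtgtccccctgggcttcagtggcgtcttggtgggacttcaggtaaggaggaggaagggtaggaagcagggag

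The RUNX letters stood in 6 of the 9 windows (Gzma, Gzmb, Gzmc, Gzmm, Prf1 and 1 of the Srgn windows), against 16.8% of all 32851 windows of the same length. The Gzma window held a RUNX match 50 bases before the start and none of the other motifs. The Gzmb window held RUNX matches 93 and 34 bases before the start, an AP-1 match 58 bases before it, a T-box match 15 bases before it and a CRE core just after it. The Gzmk window held T-box matches 74 and 49 bases before the start and an ETS match, and the Gzmc window CRE cores on both strands that overlap, from 57 bases before the start, with RUNX matches at 174 and 108 bases and an ETS match at 200 bases before it. Of the 9 windows, 3 held the T-box letters, 4 the ETS letters, 4 the CRE core and 1 the AP-1 letters. Over all windows, the T-box letters stood in 14.5%, the ETS letters in 23.8%, the CRE core in 20.8% and the AP-1 letters in 7.81%. These matches describe the letters of the windows and were set against no binding data.

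Gzma and Gzmb were among the most abundant transcripts of these cells. Per length, as TPM (counts divided by the summed exon length of a gene and scaled to the same total in every library), Gzma stood at 14500.3 and 16764 TPM in KO-labelled libraries 3 and 4, against 9423 and 10134 TPM in control libraries 1 and 2. It ranked 5 and 3 among 21397 protein-coding genes in the KO-labelled libraries, and 6 and 7 in the controls. Gzmb stood at 8513 and 9101 TPM in the KO-labelled libraries, against 6052 and 6054 TPM in the controls, at rank 9 in both KO-labelled libraries and rank 10 in both controls. Both granzyme genes thus lay within the top 10 in every library. With the length of the longest coding transcript, an alternative added after the data were seen, Gzma ranked 5 and 4 in the KO-labelled libraries and 8 in both controls, and Gzmb ranked 11 and 10 in the KO-labelled libraries and 17 and 16 in the controls.

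Srgn, Gzmc and Prf1 formed a middle tier, far below the granzyme pair on the TPM scale. Srgn averaged 842.5 ± 78.6 TPM in the KO-labelled libraries and 623.3 ± 42.1 TPM in the controls (SD, n = 2 each). Gzmc averaged 623.2 ± 153.3 TPM in the KO-labelled libraries and 638.2 ± 30.5 TPM in the controls. Prf1 averaged 511.9 ± 54.9 TPM in the KO-labelled libraries and 420.3 ± 35.1 TPM in the controls. In the controls Gzmc and Srgn did not differ beyond their spread, and in the KO-labelled libraries the same held for Gzmc and Prf1. With the length of the longest coding transcript, Srgn stood above Gzmc in the controls too (563.8 ± 42.6 against 453.9 ± 25.3 TPM). Gzmm and Gzmk were near the bottom, and their order depended on the group. Gzmk was at 5.96 and 42.03 TPM in the KO-labelled libraries, against 2.42 and 0.98 TPM in the controls, while Gzmm was at 3.74 and 3.26 TPM in the KO-labelled libraries, against 7.82 and 9.70 TPM in the controls.

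The remaining granzyme genes of the mouse, Gzmd, Gzme, Gzmf, Gzmg and Gzmn, which lie in the same chromosome 14 cluster as Gzmb, were close to silent. Their summed level was 1.16 and 0.75 CPM in the KO-labelled libraries, against 1.35 and 0.68 CPM in the controls, and only Gzme and Gzmn passed the filter on low counts (log2 fold changes -0.05 and 0.04, edgeR adjusted p = 0.997 for both). Transcripts of Gzmd and Gzme were 94.9% identical where they aligned, so reads of these genes may be split or dropped between copies. Gzmb and Gzmc aligned at 78.8% identity. Of the words of 50 bases in the Gzmc transcript, 35 of 845 (4.14%) also stood in another of the 10 granzyme genes, and the other 6 genes shared 0 such words with the other granzyme, perforin and serglycin transcripts.

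**Figure D1:**
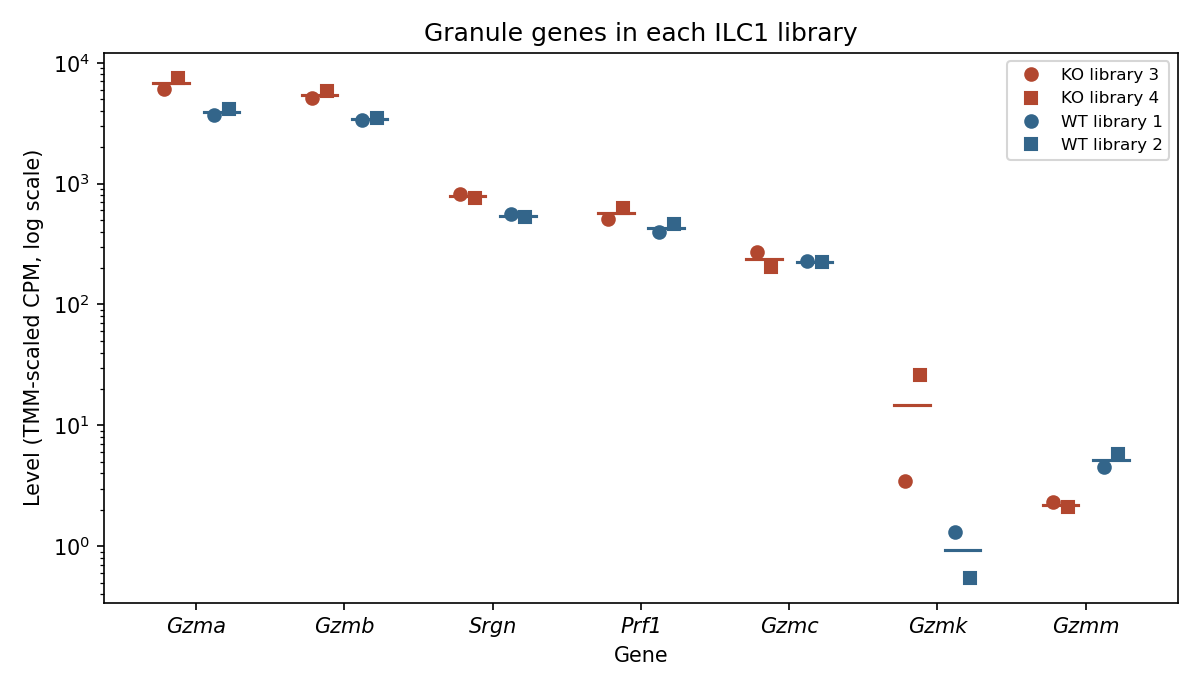
Level of each gene in each library, as TMM-scaled CPM on a log axis, with KO-labelled libraries in red left of the control libraries in blue. Horizontal lines are group means and the symbol shapes only tell the libraries apart; heights compare libraries within a gene, since CPM is not per length. Gzma, Gzmb, Srgn, Prf1 and Gzmk lie higher in both red libraries, Gzmm lower, and Gzmc overlaps.

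The major granule transcripts were higher in the KO-labelled libraries, but none of the 7 genes passed the edgeR quasi-likelihood test after adjustment over all genes. Gzma, Gzmb, Srgn, Prf1 and Gzmk lay higher in both KO-labelled libraries than in both controls, Gzmm lay lower in both, and Gzmc overlapped. Of all 14863 genes tested, 0.155% were called at an adjusted p under 0.05 (0.141% higher and 0.0135% lower), and 0 of the 7 genes, with limma-voom also calling 0. At an unadjusted p under 0.05, 6 of the 7 genes stood out, 5 higher and 1 lower, where 9.65% of all genes did, 4.48% higher and 5.17% lower. Groups did not overlap, with the KO-labelled libraries higher, for 5 of 7 genes and for 19.5% of all genes, and with them lower for 1 of 7 genes and 20.8% of all genes (40.2% in either direction). The median log2 fold change (KO-labelled over control) was 0.55 over the 7 genes and -0.01 over all genes tested. In bulk RNA, a different number of cells of a kind and a different amount of RNA per cell cannot be told apart.

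The choice of test and of filter decided the call for 4 of the 7 genes. DESeq2 called Gzma, Gzmb, Gzmk and Srgn higher, where it called 3.17% of all genes, 1.83% higher and 1.34% lower. edgeR without a filter on low counts called the same 4 genes, with 2.35% of all genes called, 1.25% higher and 1.1% lower. Myeloid, T cell and conventional NK cell markers were higher in the same libraries, with median log2 fold changes of 2.29, 0.40 and 1.13, and their part in the granule genes' values was not tested.

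**Figure D2:**
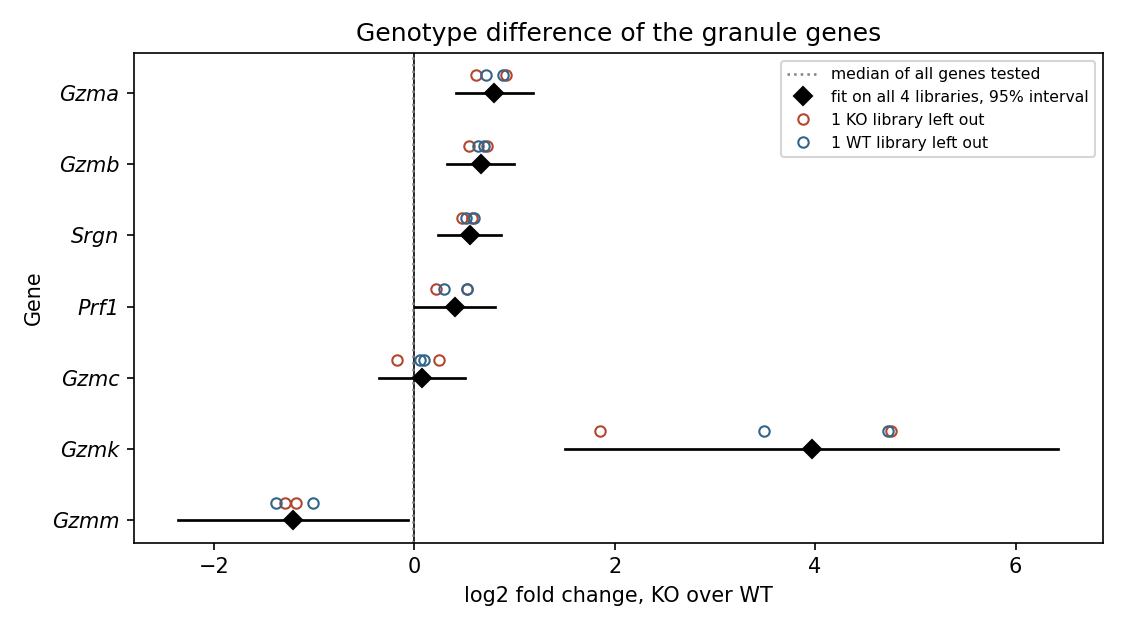
log2 fold change of each gene, KO-labelled over control, with its 95% interval from the edgeR fit on all 4 libraries (black) and the values with 1 library left out (open circles, red for KO-labelled and blue for control libraries). The dotted line is the median of all genes tested, -0.01. Gzma, Gzmb, Srgn, Prf1 and Gzmk stay right of 0 in every case, Gzmc lies on both sides, and the interval of Gzmk is the widest.

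Srgn encodes the scaffold of the granule. It reached 826.0 and 766.6 CPM in KO-labelled libraries 3 and 4, against 558.9 and 527.6 CPM in control libraries 1 and 2. The libraries of a group lay close together and the groups were apart. The log2 fold change was 0.55 (SE 0.13, 95% interval 0.23 to 0.87, edgeR adjusted p = 0.29), a 1.47-fold difference, and DESeq2 gave an adjusted p of 0.0356. Left out in turn, no library moved the log2 value outside 0.48 to 0.59. Of the 16 myeloid markers tested, 11 lay higher in both KO-labelled libraries than in both controls and 1 lower, where 19.5% and 20.8% of all genes did. The part of myeloid and other cells in the Srgn value was not tested.

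Prf1 encodes perforin, the pore-forming protein. Its level was 512.1 and 631.2 CPM in the KO-labelled libraries, against 398.2 and 465.5 CPM in the controls. The lower KO-labelled library stood only slightly above the higher control. A log2 fold change of 0.40 (SE 0.16, 95% interval 0.01 to 0.80, edgeR adjusted p = 0.51) was 0.22 without KO-labelled library 4, and no tool called the gene.

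Gzma had the highest counts of the granzyme genes. Its level was 6110 and 7481 CPM in the KO-labelled libraries, against 3694 and 4126 CPM in the controls, so that both KO-labelled libraries lay well above both controls. Its log2 fold change was 0.80 (SE 0.16, 95% interval 0.41 to 1.18, edgeR adjusted p = 0.239), or 1.74-fold, and DESeq2 gave an adjusted p of 0.00365. Ordered by unadjusted p, the gene stood at place 127 of the 14863 genes tested.

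Gzmb differed by a like amount. It was at 5120 and 5797 CPM in the KO-labelled libraries, against 3387 and 3518 CPM in the controls. The libraries within each group were close and the groups were apart. This was a log2 fold change of 0.66 (SE 0.14, 95% interval 0.33 to 0.99, edgeR adjusted p = 0.251), or 1.58-fold, and DESeq2 gave an adjusted p of 0.00966.

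Gzmc, the neighbour of Gzmb and a granzyme gene found in activated cytotoxic cells of the mouse, had a smaller value. It was at 274.0 and 204.2 CPM in the KO-labelled libraries, against 229.8 and 223.1 CPM in the controls. The controls lay between the KO-labelled libraries. The log2 fold change was 0.08 (SE 0.18, 95% interval -0.35 to 0.50, edgeR adjusted p = 0.963) and became -0.17 without KO-labelled library 3. The interval spans a 0.79-fold to a 1.42-fold level.

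Gzmk, which encodes a trypsin-like granzyme of memory-type T cells and some NK cells, rested on few counts. The table held 149 and 1340 counts in KO-labelled libraries 3 and 4, against 76 and 26 counts in control libraries 1 and 2. Scaled, these were 3.47 and 25.9 CPM in the KO-labelled libraries, against 1.31 and 0.55 CPM in the controls. KO-labelled library 4 stood 7.47-fold above library 3. The log2 fold change was 3.97 (SE 1.02, 95% interval 1.51 to 6.43, edgeR adjusted p = 0.323) with all libraries and 1.85 without library 4 (edgeR adjusted p = 0.588). DESeq2 gave an adjusted p of 0.000114.

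T cell and NK cell genes also differed between the KO-labelled libraries. Trac, which encodes the constant part of the alpha chain of the T cell receptor, was at 85.1 and 200.9 CPM in KO-labelled libraries 3 and 4, against 7.31 and 5.67 CPM in the controls. Cd3e, a chain of the receptor complex, was at 152.5 and 371.0 CPM in those libraries, against 26.5 and 15.1 CPM in the controls. Cd8a was at 59.8 and 141.3 CPM, against 15.2 and 19.7 CPM in the controls. The Ly49 receptor gene Klra7 was at 250.8 and 520.6 CPM, against 27.8 and 37.5 CPM in the controls. These genes, chosen after their values were seen, were highest in KO-labelled library 4, as Gzmk was. The same held for 10 of the 14 T cell markers and 7 of the 13 conventional NK cell markers, but not for all. Trbc1 was at 389.5 and 425.2 CPM in the KO-labelled libraries, against 442.9 and 615.5 CPM in the controls. Cx3cr1 was at 15.8 and 8.85 CPM, against 1.24 and 6.56 CPM in the controls. Library 4 was also highest for 9 of 13 genes of granule processing and membrane, 9 of 18 myeloid markers and 4 of the 7 genes. It was so for 3 of 11 cytokine receptor chains and 2 of 10 ILC1 markers. The share over all genes was not taken, so the pattern is not particular to T cell and NK cell markers. The part of T cells and NK cells in the Gzmk value was not tested.

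**Figure D3:**
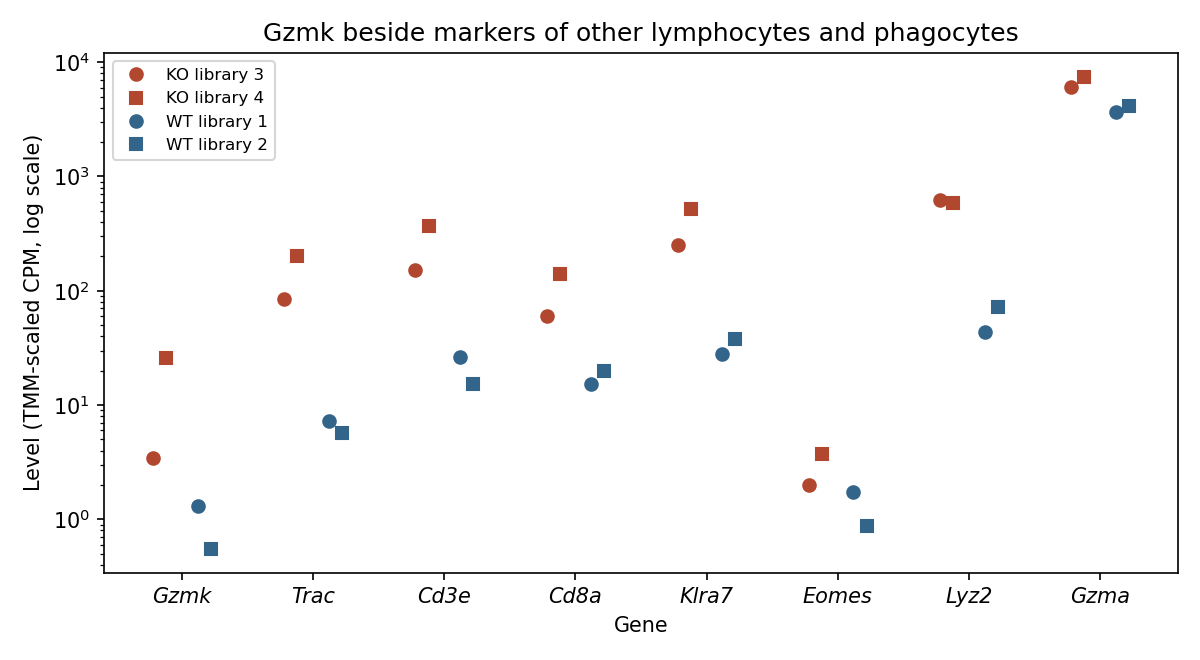
Level of Gzmk beside markers of T cells (Trac, Cd3e, Cd8a), conventional NK cells (Klra7, Eomes) and phagocytes (Lyz2), with Gzma for scale, as TMM-scaled CPM on a log axis; KO-labelled libraries in red stand left of control libraries in blue. Gzmk, Trac, Cd3e, Cd8a, Klra7, Eomes and Gzma are highest in KO-labelled library 4 (red squares). Lyz2 is not, although 9 of the 18 myeloid markers are.

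Gzmm, which encodes a granzyme that cuts after methionine and related residues, ran the other way. It had 99 and 110 counts in the KO-labelled libraries, against 260 and 273 counts in the controls, or 2.30 and 2.13 CPM in the KO-labelled libraries, against 4.48 and 5.78 CPM in the controls. Every control library lay above every KO-labelled one. A log2 fold change of -1.21 (SE 0.48, 95% interval -2.36 to -0.06, edgeR adjusted p = 0.494) was not called by edgeR or DESeq2, whose adjusted p was 0.26.

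The 7 genes together took a larger part of the KO-labelled libraries. They held 1.303% and 1.425% of all counts in the KO-labelled libraries, against 0.87% and 0.86% in the controls. The shares averaged 1.36% ± 0.09 in the KO-labelled libraries and 0.87% ± 0.01 in the controls (SD, n = 2 each). Most of it came from Gzma and Gzmb, which held 1.14% and 1.27% of counts in the KO-labelled libraries, against 0.75% and 0.74% in the controls.

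**Figure D4:**
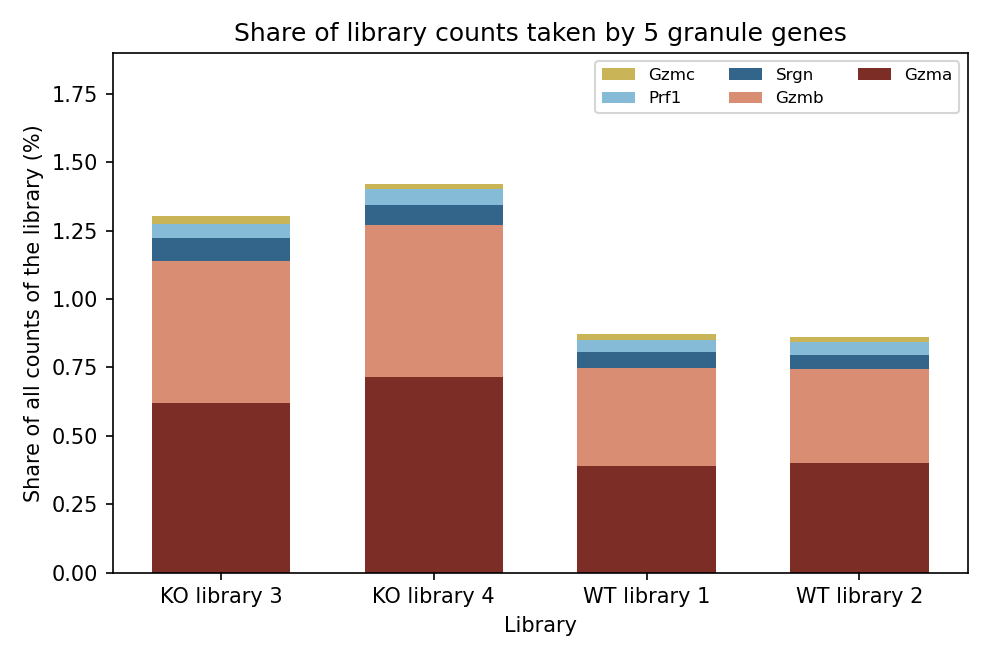
Share of all counts of each library, in percent, taken by Gzma, Gzmb, Srgn, Prf1 and Gzmc (stacked; Gzmk and Gzmm are too small to draw). Gzma and Gzmb make up most of every bar, and the bars of both KO-labelled libraries, left, are taller than those of both controls.

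The mixture of granzyme transcripts was dominated by the same pair in every library. Gzma made up 53.1% and 55.4% of the counts of the 5 granzyme genes in the KO-labelled libraries, against 50.5% and 52.4% in the controls. Gzmb made up 44.5% and 42.9% in the KO-labelled libraries, against 46.3% and 44.7% in the controls. Gzmc made up 2.38% (exact binomial 95% interval 2.34 to 2.42) and 1.51% (1.48 to 1.54) in the KO-labelled libraries, against 3.14% (3.09 to 3.19) and 2.83% (2.78 to 2.89) in the controls. Gzmk made up 0.0301% (0.0255 to 0.0354) and 0.192% (0.182 to 0.202) in the KO-labelled libraries, against 0.0179% (0.0141 to 0.0224) and 0.00699% (0.00457 to 0.0102) in the controls. Gzmm made up 0.02% and 0.0157% in the KO-labelled libraries, against 0.0613% and 0.0734% in the controls. The intervals cover counting error only and leave out the spread between libraries. PCR copies cannot be told from separate molecules here, so the counting error itself may be larger than the intervals show.

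Ratios of counts within a library do not depend on how libraries are scaled, and 7 of them were compared. There were 18.7 and 28.4 counts of Gzmb for each count of Gzmc in KO-labelled libraries 3 and 4, against 14.7 and 15.8 in control libraries 1 and 2. The log2 ratio was higher by 0.60 in the KO-labelled libraries, and by 0.29 without library 4 (exact permutation p = 0.333, adjusted p = 0.467 over 7 ratios). The ratio of Gzma to Prf1 was 11.9 and 11.9 in the KO-labelled libraries, against 9.28 and 8.86 in the controls, a difference of 0.39 in log2 with the groups apart. The ratio of Gzmb to Prf1 was 10.0 and 9.18 in the KO-labelled libraries, against 8.51 and 7.56 in the controls, a difference of 0.26 in log2.

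Gzma counts exceeded Gzmb counts in every library. The ratio of Gzma to Gzmb was 1.19 and 1.29 in the KO-labelled libraries, against 1.09 and 1.17 in the controls, a difference of 0.13 in log2, with KO-labelled library 3 only just above control library 2. Measured against the serglycin scaffold, Gzmb was at 6.20 and 7.56 counts for each Srgn count in the KO-labelled libraries, against 6.06 and 6.67 in the controls, and Prf1 at 0.62 and 0.82 in the KO-labelled libraries, against 0.71 and 0.88 in the controls. Both ratios overlapped between the groups (exact permutation p = 0.667 for each). The ratio of Gzma to Gzmk was 1762 and 288.9 in the KO-labelled libraries, against 2818 and 7497 in the controls. The smallest p of each of these tests is 0.333, so none could reach a threshold of 0.05.

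**Figure D5:**
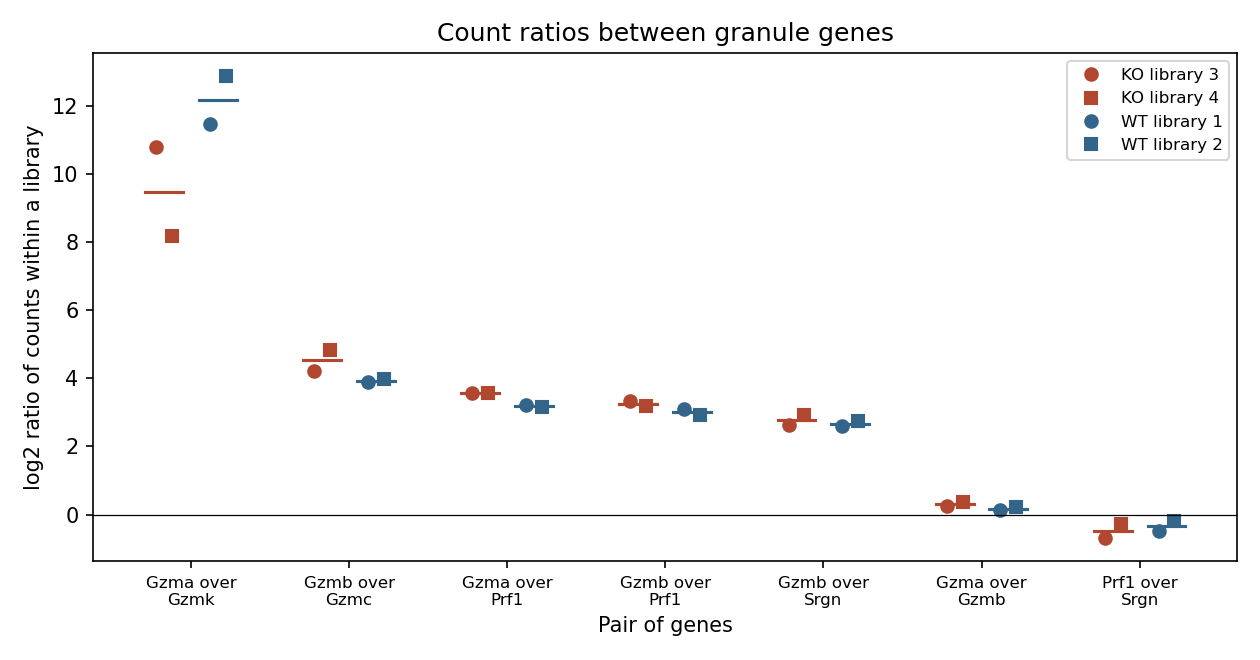
log2 ratio of the counts of 2 genes within a library, for 7 pairs, with KO-labelled libraries in red left of control libraries in blue; horizontal lines are group means. The groups overlap for Gzmb over Srgn and Prf1 over Srgn and are apart for the other 5 pairs, and Gzma over Gzmk spreads the most.

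Genes that prepare and hold the granule contents were set beside the 7 genes. Of 13 genes of granule processing and membrane, 0 passed the edgeR threshold, while 2 were higher and 0 lower by unadjusted p (under 0.05, here and for the lists that follow), with a median log2 fold change of 0.26. Over all genes tested, the shares at such a p were 4.48% higher and 5.17% lower and DESeq2 called 3.17%, and the small counts in this and the following lists are to be read against those shares. DESeq2 called Ctsh alone, higher, and limma-voom called 0. Nkg7, a granule membrane protein gene, was at 3859 and 4808 CPM in the KO-labelled libraries, against 3721 and 4210 CPM in the controls (log2 fold change 0.13, edgeR adjusted p = 0.91). Ctsw, a cathepsin gene of cytotoxic lymphocytes, was at 1156 and 1170 CPM in the KO-labelled libraries, against 914.2 and 1025 CPM in the controls. Cst7, which encodes cystatin F, an inhibitor of the granzyme-activating cathepsin C, was at 318.4 and 320.6 CPM in the KO-labelled libraries, against 233.9 and 282.7 CPM in the controls.

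The members with unadjusted p under 0.05 were Ctsh and Lamp2. Ctsh, a cathepsin gene, was at 26.6 and 32.8 CPM in the KO-labelled libraries, against 5.66 and 6.41 CPM in the controls (log2 fold change 2.30, edgeR adjusted p = 0.0706). Phagocytes express cathepsin H as well, and the phagocyte gene Lyz2 was at 626.0 and 582.5 CPM in the KO-labelled libraries, against 43.1 and 71.5 CPM in the controls; its part in the Ctsh value was not tested. Lamp2, a lysosomal membrane protein gene, was at 107.9 and 94.5 CPM in the KO-labelled libraries, against 76.02 and 64.98 CPM in the controls (edgeR adjusted p = 0.42). Ctsl was at 5.07 and 9.55 CPM in the KO-labelled libraries, against 3.55 and 3.28 CPM in the controls.

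Serpins that protect the cell from its own granule proteases were followed as well. Of 8 such genes 7 were tested, and edgeR called 0 of them, with 1 higher and 0 lower by unadjusted p and a median log2 fold change of 0.17. DESeq2 called Serpinb1a alone, higher, and limma-voom called 0. Serpinb9, whose product inhibits granzyme B, was at 167.6 and 163.5 CPM in the KO-labelled libraries, against 132.9 and 161.8 CPM in the controls (log2 fold change 0.17, SE 0.16, edgeR adjusted p = 0.834). Serpinb1a was at 15.1 and 21.7 CPM in the KO-labelled libraries, against 3.66 and 5.74 CPM in the controls (log2 fold change 1.97, SE 0.39, edgeR adjusted p = 0.239). Serpinb6a was at 39.8 and 38.0 CPM in the KO-labelled libraries, against 34.1 and 25.7 CPM in the controls, and Serpinb9b stayed at or below 1.58 CPM in every library.

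Enzymes that build glycosaminoglycan chains, which serglycin carries, were measured for 14 of 19 genes. edgeR called 0 of them, with 0 higher and 2 lower by unadjusted p and a median log2 fold change of -0.04. DESeq2 called Csgalnact1 alone, lower, and limma-voom called 0. Xylt2, a xylosyltransferase gene that begins the chains, was at 8.96 and 6.76 CPM in the KO-labelled libraries, against 15.2 and 16.8 CPM in the controls (log2 fold change -1.03, edgeR adjusted p = 0.395). Csgalnact1, which starts chondroitin sulfate, had 0 counts in both KO-labelled libraries, against 37 and 35 counts in the controls (edgeR adjusted p = 0.305). Its relative Csgalnact2 was at 10.9 and 8.97 CPM in the KO-labelled libraries, against 7.86 and 5.44 CPM in the controls. The chondroitin synthase gene Chsy1 was the most abundant of the list by CPM, at 337.4 and 345.1 CPM in the KO-labelled libraries, against 378.8 and 457.4 CPM in the controls.

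Among 23 genes of transcription factors and other regulators of granzyme or perforin expression, edgeR called 0, with 1 higher and 1 lower by unadjusted p and a median log2 fold change of 0.06. DESeq2 called Irf4 alone, higher, and limma-voom called 0. Irf4, which T cell and myeloid lineages also express, was at 3.70 and 2.76 CPM in the KO-labelled libraries, against 0.57 and 0.23 CPM in the controls (edgeR adjusted p = 0.329). Notch2 was at 166.4 and 213.4 CPM in the KO-labelled libraries, against 236.7 and 314.6 CPM in the controls (log2 fold change -0.54, edgeR adjusted p = 0.481). Jun was at 17.8 and 21.9 CPM in the KO-labelled libraries, against 12.81 and 12.02 CPM in the controls (edgeR adjusted p = 0.522), and Zeb2 did not exceed 3.93 CPM in any library. Ets1 was at 2175 and 2383 CPM in the KO-labelled libraries, against 2477 and 3439 CPM in the controls, and Id2 at 3021 and 2580 CPM, against 2562 and 2117 CPM in the controls.

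Receptor chains for cytokines that raise granzyme expression were 11, of which edgeR called 0, with 1 higher and 0 lower by unadjusted p and a median log2 fold change of 0.03. DESeq2 and limma-voom called 0 as well. Il2ra, the high-affinity chain of the interleukin-2 receptor, was at 73.4 and 50.4 CPM in the KO-labelled libraries, against 32.9 and 42.7 CPM in the controls (log2 fold change 0.71, edgeR adjusted p = 0.464). Il2rb, the chain shared with interleukin-15, was at 2971 and 3648 CPM in the KO-labelled libraries, against 3053 and 3603 CPM in the controls, and Il2rg at 1021 and 1251 CPM, against 1032 and 1292 CPM in the controls. Both differed by less than the spread between libraries of a group. Il21r was at 229.7 and 354.2 CPM in the KO-labelled libraries, against 177.2 and 236.3 CPM in the controls. Il18r1 was at 79.4 and 56.6 CPM in the KO-labelled libraries, against 58.3 and 42.7 CPM in the controls, and Ifnar2 at 57.8 and 38.6 CPM, against 93.2 and 35.2 CPM in the controls.

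Genes with the pattern most like a granule gene over the 4 libraries were sought among 1873 genes of at least 100 CPM. Likeness was the distance between log2 CPM values centred on each gene's mean, with no test, since 4 libraries hold few shapes. Nearest to Gzmb were Cd48, the gene of a surface ligand of the receptor 2B4 (distance 0.10), Aplp2 (0.11) and S100a11 (0.15). Cd48 was at 521.1 and 547.5 CPM in the KO-labelled libraries, against 351.5 and 350.0 CPM in the controls. Nearest to Gzma were Gpx1, a glutathione peroxidase gene (0.23), Prelid1 (0.26) and Aplp2 (0.26), all farther than the neighbours of Gzmb. Nearest to Prf1 were Laptm4a (0.02), Cox7c (0.03) and Hcls1 (0.04). Within a distance of 0.2 there were 150 genes around Prf1, 12 around Gzmb and 0 around Gzma. The distance is not scaled to the size of a gene's change, so these counts depend on that size as well as on the pattern.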

How the data were processed

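Gene expression was measured in 4 libraries of CD49a-positive ILC1s, 2 per genotype, made with the low-input SMARTer kit for NovaSeq sequencing (per the labels). The authors deposited raw counts per gene, 1 column per library. The submitters' processing notes name STAR, featureCounts of Subread, bcl2fastq, DESeq2 and the mm10 build; the annotation and strand setting are not given in the sources used here. Of 40757 lines, 276 repeats of a gene with identical counts were dropped. Genes were filtered (filterByExpr), scaled (TMM) and tested with edgeR 4.0.16 in R 4.3.3 (robust quasi-likelihood, two-sided, 2 residual degrees of freedom, genotype as the only term); Benjamini-Hochberg adjustment ran over 14863 genes with a threshold of 0.05. SE is the log2 fold change over the root of its F, and the t interval uses the moderated degrees of freedom. All 7 genes passed the filter. The test was checked on simulated counts, with changes larger than those of the 7 genes other than Gzmk. The check thus says nothing about changes of their size. DESeq2 1.42.0 and limma 3.58.1 (voom), other scalings and filters, and leaving out each library were alternatives. TPM-like levels used GENCODE M21 lengths, which 40254 genes had. Sequences are from RefSeq; protein sequences were not used here. Members and gene lists were chosen with earlier results of these data known, so lists are described by counts and medians. Named are the 7 genes, Inpp4b, up to 4 genes with the smallest p in each of 6 granule-related and regulatory lists plus those above 1000 CPM, and the 3 nearest patterns to Gzma, Gzmb and Prf1; of the marker lists only genes beside a result are named, and these were chosen after their values were seen.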

Additional observations from a re-analysis of the deposited data

How the results depend on the processing

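With all libraries kept, the log2 fold changes of the 7 genes kept their direction under every other scaling, filter and test; the median of all genes lay between -0.09 and 0.01 under these. The count of calls over all genes, 23 at first, was 563 without a filter on low counts, 481 with DESeq2 and 49 with the filter of 50 counts in 2 libraries. The count among the 7 genes was 4 with DESeq2 and 4 without a filter. DESeq2 gave log2 fold changes of 0.81 for Gzma, 0.68 for Gzmb, 4.01 for Gzmk and 0.57 for Srgn, and edgeR without a filter gave 0.78, 0.64, 3.95 and 0.53 for these genes, with adjusted p from 3.4e-11 to 0.0445. The cause was not tested.

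Leaving out each library in turn gave 0 to 18 calls over all genes and 0 among the 7: 18 without KO-labelled library 3, 3 without control library 1, 1 without control library 2, and 0 without KO-labelled library 4, where 555 genes were higher and 897 lower at an unadjusted p below 0.05. The log2 fold change then ranged from 0.62 to 0.92 for Gzma, 0.54 to 0.73 for Gzmb, 0.22 to 0.53 for Prf1, 1.85 to 4.76 for Gzmk, -1.38 to -1.01 for Gzmm and -0.17 to 0.25 for Gzmc, whose value of -0.17 without KO-labelled library 3 reversed the direction. Among ratios, Gzmb over Srgn was -0.036 without KO-labelled library 4, within -0.036 to 0.25, and Prf1 over Srgn was 0.055 without KO-labelled library 3 and 0.004 without control library 2, within -0.36 to 0.055. The titles number the libraries 1 to 4, whereas the column headers number them 1 and 2 within each genotype; libraries were matched by the titles' numbers, and nothing says that a header number marks a shared source. Same-numbered libraries hardly deviated together (r = 0.07 across 14863 genes), and an edgeR fit with these numbers as a replicate block, added after the data were seen, called 0 genes (857 higher and 852 lower at an unadjusted p below 0.05) and 0 of the 7. A fit without 1 library assumes that the lone library of its group varies like the other group. Counts of 26 to 1340 per library limit Gzmk and Gzmm, whereas the other genes had at least 10540 counts per library.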
